A study of Mus musculus with 15 samples.

Results

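The regions described here carried a peak of H3K27ac in mouse embryonic stem cells (ESCs) and in neither kind of expanded potential stem cell (EPSC), while a peak of H3K4me1 overlapped them in all 3 cell states. Overlapping or touching H3K27ac peaks of the 3 states were joined into 70360 regions, and the members were selected on the measured peak lists: a region was kept when its H3K27ac peaks came from ESCs only and when it shared at least 1 bp with an H3K4me1 peak of each state. The rule was met by 19826 regions, which is 28.2% of all H3K27ac regions and 31.7% of the 62510 regions with an ESC peak. Presence and absence of the 2 marks were thus set by the rule and are given only as a description.

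All cells were of strain 129SV. The study profiled H3K27ac and H3K4me1 by ChIP-seq in 2 samples per mark and state, with 1 input sample per state. J1 ESCs, a single established line, grew in serum medium with LIF and the inhibitors CHIR99021 and PD0325901. Both kinds of EPSC were obtained in the study by converting ESCs in the respective medium. D-EPSCs grew in N2B27 with KSR, LIF, CHIR99021, dimethindene maleate and minocycline hydrochloride, and L-EPSCs in KSR medium with LIF, CHIR99021, PD0325901, A-419259, XAV939, JNK inhibitor VIII and SB203580. LIF and CHIR99021 were thus common to all groups. Feeder fibroblasts or gelatin carried the ESC cultures, whereas both EPSC cultures were kept feeder-free before the ChIP. The data analysed were 6 peak lists, 1 per mark and state, so the differences given here lack a replicate check and no test was made. The H3K27ac lists were unequal, with 64342 peaks in ESCs, 32782 in D- and 26966 in L-EPSCs, while the H3K4me1 lists held 102751 to 107222 peaks. Read depth and peak-calling thresholds, which are unknown from peak positions, cannot be told apart from the cell state as sources of that inequality. Peaks of H3K27ac lay at the start sites of Pou5f1, Sox2 and Nanog, the core pluripotency factors, in all 3 states.

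H3K4me1 is placed by the MLL3 and MLL4 methyltransferases at enhancers and around promoters, and it can mark an enhancer that is not active. H3K27ac is placed by the acetyltransferases p300 and CBP at active enhancers and promoters. An element with H3K4me1 and without H3K27ac is commonly called a primed enhancer, and in ESCs many active enhancers are bound by pluripotency factors such as OCT4, SOX2, ESRRB, KLF4 and the LIF effector STAT3.

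6 members are shown as sequence to let the letters behind the motif counts be seen at genes of pluripotency, LIF and FGF signalling. Each line holds 200 bases of the plus strand of mm9, and capitals mark letters that match a motif of the pluripotency group on either strand. The Spred1 stretch (chr2:116965871-116966070) lies in the gene of this inhibitor of RAS and ERK signalling, and capitals mark ESRRB and SOX letters. The Tbx3 stretch (chr5:120167463-120167662) lies outside protein-coding genes, in a member 45835 bp from the start site of the naive pluripotency factor Tbx3. The stretch holds STAT and SOX letters. The Tet2 stretch (chr3:133164318-133164517) lies in the gene of this DNA demethylase and holds SOX and ESRRB letters. The Tfcp2l1 stretch (chr1:120494250-120494449) lies in Clasp1, in a member 29136 bp from the start site of the naive factor Tfcp2l1. The stretch holds KLF and SOX letters. The Bcl3 stretch (chr7:20389132-20389331) lies outside protein-coding genes near Bcl3, an NF-kappaB cofactor induced by LIF, and holds ESRRB letters. The Fgf10 stretch (chr13:119497307-119497506) is the middle of a very wide member inside the gene of this FGF ligand, and holds NR5A letters.
Spred1: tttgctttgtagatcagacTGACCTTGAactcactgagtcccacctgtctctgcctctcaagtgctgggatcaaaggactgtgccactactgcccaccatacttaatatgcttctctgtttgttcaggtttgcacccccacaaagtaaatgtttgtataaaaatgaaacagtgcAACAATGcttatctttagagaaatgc
Tbx3: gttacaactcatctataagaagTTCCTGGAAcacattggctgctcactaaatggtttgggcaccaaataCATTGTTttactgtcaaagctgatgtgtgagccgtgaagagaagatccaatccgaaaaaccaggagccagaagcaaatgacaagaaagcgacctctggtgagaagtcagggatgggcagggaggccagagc
Tet2: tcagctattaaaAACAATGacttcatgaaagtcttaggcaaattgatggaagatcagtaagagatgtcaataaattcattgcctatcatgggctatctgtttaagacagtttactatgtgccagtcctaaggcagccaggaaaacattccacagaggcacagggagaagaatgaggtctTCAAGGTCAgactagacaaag
Tfcp2l1: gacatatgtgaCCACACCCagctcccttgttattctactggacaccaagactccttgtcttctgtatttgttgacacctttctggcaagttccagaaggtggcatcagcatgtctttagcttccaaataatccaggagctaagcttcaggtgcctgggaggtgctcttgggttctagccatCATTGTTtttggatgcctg
Bcl3: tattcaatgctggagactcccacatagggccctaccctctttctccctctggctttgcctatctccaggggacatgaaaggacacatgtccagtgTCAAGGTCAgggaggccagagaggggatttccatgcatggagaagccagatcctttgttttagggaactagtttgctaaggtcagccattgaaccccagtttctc
Fgf10: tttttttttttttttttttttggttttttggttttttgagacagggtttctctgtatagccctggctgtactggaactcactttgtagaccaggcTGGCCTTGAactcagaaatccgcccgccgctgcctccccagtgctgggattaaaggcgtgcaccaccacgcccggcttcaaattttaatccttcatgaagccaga

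The H3K4me1 peaks of these 6 members differed in extent between states. At the Spred1 member 100% of the bases lay under H3K4me1 peaks in both ESCs and D-EPSCs, whereas L-EPSCs had 12.6%. At the Tbx3 member the share was 71.5% in ESCs, 9.38% in D- and 16.9% in L-EPSCs. At the Tet2 member it was 100% in ESCs, 91.6% in D- and 100% in L-EPSCs. The H3K4me1 of a member could thus be nearly whole in EPSCs or cover a small share of it. The Tfcp2l1 member had 67.1%, 48.6% and 43.1% of its bases under H3K4me1 in ESCs, D-EPSCs and L-EPSCs. The Bcl3 member had 99.0%, 100% and 52.0%, and the Fgf10 member 91.1%, 22.2% and 17.7%.

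Members made up 52.5% of the 37735 regions acetylated in ESCs only (95% Wilson interval 52.0 to 53.0). Wilson intervals here cover counting error only, and neighbouring regions are not independent. Of the other ESC-only regions, 14.4% had H3K4me1 in ESCs and in neither EPSC, 14.5% had it in no state, 9.45% had it in ESCs and D-EPSCs, and 5.84% in ESCs and L-EPSCs. Members were therefore the most frequent of the 8 H3K4me1 combinations. The same combination was found at 20199 of the regions with H3K27ac in ESCs and in at least 1 EPSC state. That is a larger share than the 52.5%, as 62510 regions had an ESC peak and 37735 of them were ESC-only. Each member consisted of 1 ESC H3K27ac peak, and together they covered 22.2 Mb, or 20.7% of the bases under ESC H3K27ac peaks. Their width ranged from 210 to 13215 bp with a median of 817 bp. Regions with H3K27ac and H3K4me1 in all 3 states, called shared regions below, numbered 12783 and were wider, with a median of 3246 bp. ESC-only regions with H3K4me1 in ESCs alone were narrower, with a median of 559 bp.

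Membership turned on few bases at some regions. In 67 members the smallest of the 3 H3K4me1 overlaps was under 10 bp and in 942 (4.75%) it was under 100 bp, against a median of 524 bp. An EPSC H3K27ac peak lay under 100 bp away from 171 members. Just outside the rule, 641 ESC-only regions missed membership although an H3K4me1 peak of every state lay on them or within 100 bp. A further 488 regions with H3K4me1 in all 3 states were kept out by EPSC H3K27ac peaks covering under 10 percent of the region. When all lists of a mark were shortened to the same number of peaks, by keeping the widest, 7693 regions met the rule.

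H3K4me1 over the members was less extensive in EPSCs than in ESCs. In ESCs 75.2% of the members lay wholly inside 1 H3K4me1 peak (74.6 to 75.8), against 51.6% (50.9 to 52.3) and 44.6% (43.9 to 45.3) in D- and L-EPSCs. With lists shortened to equal length the EPSC shares were 28.6% and 21.1%, and the ESC share was not computed at that setting. Shortening kept the widest peaks, and in the full lists wide members were less often wholly inside a peak in every state. In ESCs the share was 88.0% for members under 500 bp and 37.0% for those of 5 kb or more. H3K4me1 peaks covered 20.3 Mb of the members in ESCs, 16.6 Mb in D- and 15.5 Mb in L-EPSCs. On the log2 scale the covered bases were -0.30 in D- and -0.39 in L-EPSCs relative to ESCs. The whole H3K4me1 lists gave -0.24 and -0.35 by the same measure, and shared regions gave -0.04 and -0.05. The difference over the members was thus close to that of the whole lists and larger than that over shared regions. Since the members were chosen by ESC acetylation and by overlap of at least 1 bp, these extents are a description.

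Single members went both ways. In D-EPSCs 44.0% of the members had fewer bases under H3K4me1 than in ESCs, 46.1% had the same number and 9.90% had more. In L-EPSCs 51.1% had fewer, 39.6% the same and 9.25% more. Wholly covered by 1 peak in each of the 3 states were 6514 members (32.9%), and 7965 were wholly inside a peak in neither EPSC state. The widest H3K4me1 peak on a member had a median width of 3380 bp in ESCs, 2038.5 bp in D- and 1718.5 bp in L-EPSCs. In EPSCs the H3K4me1 peak on a member carried H3K27ac elsewhere along its length at 17.5% of the members in D- and at 12.9% in L-EPSCs. The rule bars EPSC H3K27ac from the member itself, and the share over all EPSC H3K4me1 peaks is not given here.

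**Figure D1:**
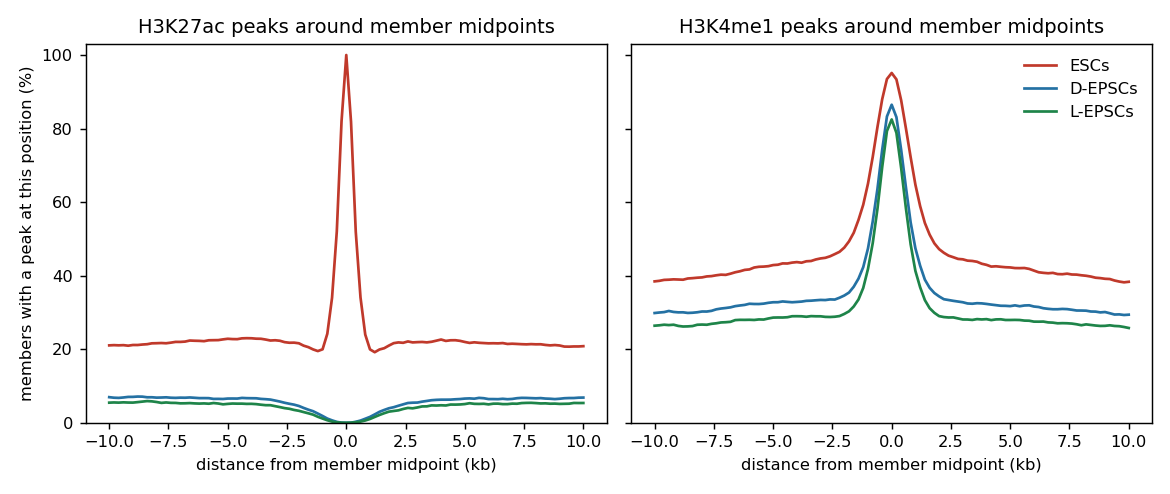
Share of the 19826 members with an H3K27ac peak (left) or an H3K4me1 peak (right) at each distance from the member midpoint, by cell state. At the midpoint H3K27ac is 100% in ESCs and 0 in EPSCs because the rule fixes it. The rule also places H3K4me1 of every state on each member, and its share at the midpoint is 95.1% in ESCs, 86.5% in D- and 82.5% in L-EPSCs.

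The plot of peaks around member midpoints shows how far H3K4me1 reached beyond the regions on which the rule requires it. At 1 kb from the midpoint towards higher coordinates the share had fallen to 64.8% in ESCs, 47.5% in D- and 41.3% in L-EPSCs. At 5 kb on that side it was 42.2%, 31.7% and 28.0%. Beyond the members, ESC H3K27ac peaks lay at 22.0% of positions 5 kb away on the same side, against 6.58% in D- and 5.09% in L-EPSCs.

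Wider members had a smaller share of their bases under H3K4me1 in EPSCs, but width did not separate complete from partial members. Of the members under 500 bp, 77.5% were wholly inside an H3K4me1 peak in D- and 71.7% in L-EPSCs. Of those of 5 kb or more, 5.52% and 2.76% were. Under 500 bp, 91.2% of member bases lay under H3K4me1 in D- and 88.0% in L-EPSCs, against 95.8% in ESCs. For the 181 members of 5 kb or more these shares were 58.2%, 52.4% and 90.3%. The ESC share thus varied little with width and the EPSC shares declined through all 5 width classes. A wide region can meet the rule with a smaller covered share than a narrow one. The part of the rule in the decline was not tested. In shared regions the ESC share was the lowest of the 3 states below 5 kb and the highest at 5 kb or more. From 1 to 2 kb, 60.2% of their bases were under H3K4me1 in ESCs, 71.2% in D- and 74.3% in L-EPSCs, and at 5 kb or more 83.9%, 78.5% and 76.8%.

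**Figure D2:**
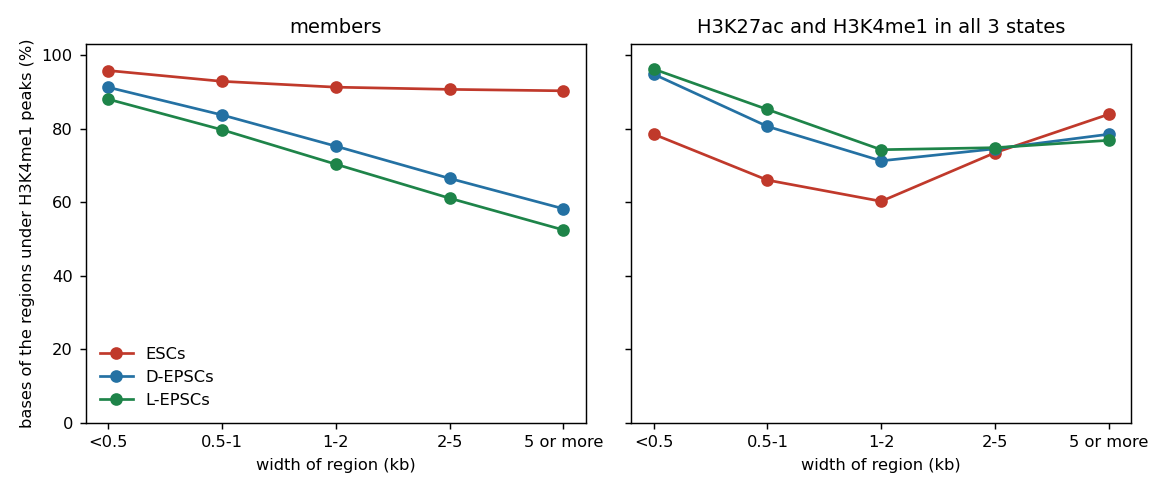
Percent of region bases under H3K4me1 peaks (vertical axis) by region width in kb (horizontal axis) for the members (left) and for shared regions (right), with 1 point per cell state. In members the EPSC points decline from 91.2% and 88.0% to 58.2% and 52.4%, while the ESC points stay between 90.3% and 95.8%.

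EPSC acetylation was often near the members but not adjacent to them. The nearest D-EPSC H3K27ac peak was a median of 7.31 kb away and the nearest L-EPSC peak 9.70 kb. Within 1 kb there was a D-EPSC peak for 8.80% of the members and an L-EPSC peak for 6.15%. Within 5 kb of 44.6% of the members there was a peak of either EPSC state (43.9 to 45.3). By contrast 1520 members (7.67%) had none of either state within 50 kb. ESC-only regions with H3K4me1 in ESCs alone had an EPSC peak within 5 kb in 40.8% of cases, and those without H3K4me1 in 41.0%.

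Members lay mostly away from promoters. The midpoint was within 1 kb of the start site of a protein-coding gene in 787 members, or 3.97% (3.71 to 4.25), against 10.3% of all H3K27ac regions. The share was 18.8% in shared regions, 0.718% in ESC-only regions with H3K4me1 in ESCs alone and 1.63% in those without H3K4me1. The share at start sites in members was thus below that of shared regions and above that of both these ESC-only classes. Within 2500 bp of a start site it was 10.3% in members, and the share of all regions at that wider distance was not computed. The median distance to a start site was 18.1 kb. Introns held 56.5% of the midpoints, exons 6.40%, and 37.1% fell outside protein-coding genes.

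The 10 widest members each had a different nearest gene. The widest of all, 13215 bp, lay in Capn5, which encodes a calpain protease (chr7:105306754-105319968, across introns, exons and an untranslated region). H3K4me1 covered 100% of it in ESCs, 44.7% in D- and 33.9% in L-EPSCs, and the nearest EPSC H3K27ac peak was 189686 bp away. Members of 12700 bp in Tnip1, an inhibitor of NF-kappaB signalling, and of 12116 bp in Pcsk6, a proprotein convertase that processes Nodal, followed. Acetylation of EPSCs was close to both of these, at 5123 bp from the Tnip1 member and at 901 bp from the Pcsk6 member. The fourth widest, of 11483 bp, was the Fgf10 member whose middle is printed above (chr13:119491691-119503173). Its nearest H3K27ac peak was at 60449 bp in D- and at 315672 bp in L-EPSCs. Next came a member of 11055 bp at 43183 bp from the start site of Lifr, the LIF receptor, with H3K4me1 over 98.5% of its bases in ESCs, 69.3% in D- and 55.6% in L-EPSCs. A further 4 of the widest lay in Akap2 and Tmem51 and outside genes nearest to Tmem17 and Epb4.1l4b. Their width was 9188 to 10842 bp and their H3K4me1 share 35.5 to 52.2% in D- and 25.03 to 72.9% in L-EPSCs. All of these members had a smaller share under H3K4me1 in both EPSC states than in ESCs.

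Many members were neighbours. When neighbours separated by at most 12498 bp were joined, 36.5% stood alone and 39.9% (39.2 to 40.6) were in clusters of 3 or more, of which there were 1936, and 31 clusters held 10 or more. The share in clusters of 3 or more was 19.3% with lists of equal length and 19.9% with gaps of at most 5 kb. The largest, of 20 members, ran over 49.3 kb of Enah, a regulator of actin filaments (chr1:183893961-183943213). ESCs had 22 H3K27ac peaks in it, D-EPSCs 1 and L-EPSCs 0, whereas H3K4me1 peaks covered 42.2 kb in ESCs, 46.5 kb in D- and 41.0 kb in L-EPSCs. Acetylation there was almost absent from the EPSC lists over a stretch on which H3K4me1 was as extensive as in ESCs. A cluster of 19 members lay at Epb4.1l4a, which encodes a cytoskeletal protein of the band 4.1 family, and one of 17 at Tle3, a Groucho corepressor. At Tle3 H3K4me1 fell short of ESCs, with 66.1 kb in ESCs, 48.4 kb in D- and 42.5 kb in L-EPSCs. A cluster of 14 members lay in Nr5a2.

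For genes, members were counted within 50 kb of each start site, so that gene length did not enter. At least 1 member was found for 12025 of 22350 protein-coding genes (53.8%), and 5 or more for 12.4%. The 53.8% became 34.5% with lists of equal length and 26.96% with windows of 10 kb. Most members were at Enah (21), Epb4.1l4a (19), Copz1 (17), Nr5a2 (16) and Pxn (16). Csrp1, Tle3 and its neighbour Gm10655 had 15 each. A further 7 genes tied at 14, among them Cbx5, Hnrnpa1 and Nfe2, which lie beside Copz1 and share its members. Copz1 encodes a coat protein of secretory vesicles and Pxn the focal adhesion protein paxillin. Within 50 kb of the Copz1 start site H3K27ac peaks covered 32.0 kb in ESCs, 3.17 kb in D- and 2.07 kb in L-EPSCs, against 66.3, 57.3 and 43.3 kb of H3K4me1. At Pxn H3K27ac covered 47.0, 13.2 and 8.14 kb in that order, and H3K4me1 77.0, 70.1 and 57.0 kb. At these loci H3K27ac was thus much shorter in EPSCs, and H3K4me1 was shorter by a smaller share. The rule sets both marks on members, so this pattern is partly built in at loci picked for their members. The whole lists went the same way, with H3K27ac over 107, 44.4 and 34.3 Mb in ESCs, D-EPSCs and L-EPSCs. Those of H3K4me1 covered 221, 187 and 173 Mb. Lengths at the loci below are to be read beside these.

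Naive pluripotency factors had members at 13 of 17 genes (76.5%), beside 53.8% of all genes. Counted over ESC-acetylated regions within 50 kb of their start sites, 38.7% were members, beside 32.9% for all protein-coding genes. Nr5a2, a nuclear receptor of the naive state, had 16 members among 24 ESC-acetylated regions. Their H3K4me1 share had a median of 98.1% in D- and 64.8% in L-EPSCs, with 8 and 6 of the 16 wholly inside a peak. Of H3K27ac, 34.8 kb was listed around the start site in ESCs, 6.54 kb in D- and 8.72 kb in L-EPSCs. Tbx3 had 9 members, with 65.8 kb of H3K27ac in ESCs, 6.01 kb in D- and 22.9 kb in L-EPSCs, and the H3K4me1 share of its members went down to 2.35% in D-EPSCs. Tet2 also had 9 members and Klf5, a Kruppel-like factor, 8. Esrrb, Klf2, Nr0b1 and Tcl1 had none. At Esrrb the annotated start site is far from most of the gene's acetylation, and when the whole gene and 10 kb on each side were taken, a choice made after seeing the data, 3 of 11 ESC regions were members. Klf2 had 8 ESC regions and no member, with 87.6 kb of H3K27ac in ESCs, 64.6 kb in D- and 48.0 kb in L-EPSCs.

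Among the core factors, Nanog had 5 members among 19 ESC regions, Sox2 had 4 among 11 and Pou5f1 had 1 among 14. Summed over the 3 genes, 10 of 44 regions (22.7%) were members, beside 32.9% for all protein-coding genes. The lower share did not hold for each gene, as that of Sox2 was above 32.9%. These counts are small, and no interval is given for them. Windows of neighbouring genes such as Nanog and Dppa3 overlap, and a member can count for several genes.

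The LIF receptor and STAT3 pathway had members at 9 of 10 genes, against 53.8% of all genes, and 38.5% of its ESC regions were members, against 32.9%. Lifr, which encodes the receptor subunit that binds LIF, had 10 members among 19 ESC regions, of 210 to 11055 bp. The Lifr members had a median H3K4me1 share of 100% in D- and 90.4% in L-EPSCs. Pim1, a STAT3 target kinase, had 8 members, and H3K27ac around it covered 51.6 kb in ESCs, 10.8 kb in D- and 9.76 kb in L-EPSCs. Socs3, the feedback inhibitor of the pathway, had 7 members, with H3K4me1 over 81.5, 72.5 and 63.2 kb in ESCs, D-EPSCs and L-EPSCs. Bcl3 also had 7 and Stat3 itself 5. Jak1, the kinase of the receptor, had no member among its 3 ESC regions.

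**Figure D3:**
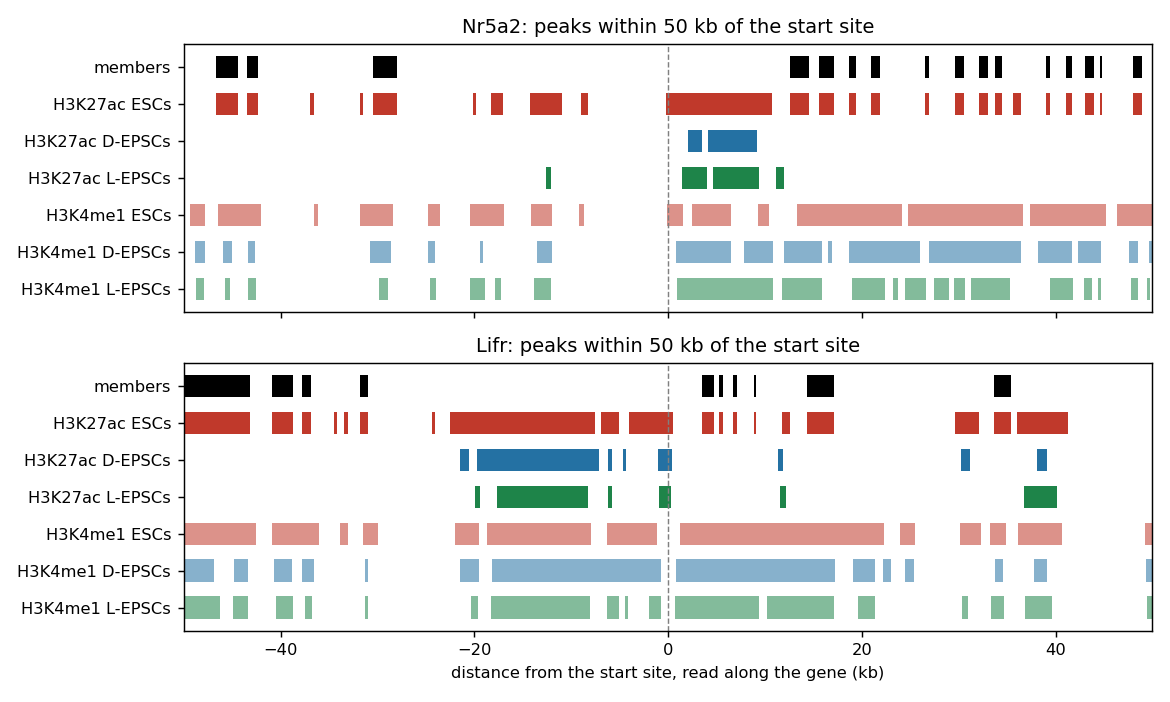
Peaks within 50 kb of the start sites of Nr5a2 (top) and Lifr (bottom), with distance from the start site in kb read along the gene and 1 row per mark and cell state. Black bars are the 16 Nr5a2 members and 10 Lifr members, which have an ESC H3K27ac peak and H3K4me1 below them in all 3 states, while EPSC H3K27ac is listed between them.

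The map of peaks at Nr5a2 and Lifr shows where the EPSC acetylation was. At Nr5a2 the EPSC H3K27ac peaks were mostly near the start of the gene, and 14 neighbouring members inside the gene formed a cluster with 15 ESC H3K27ac peaks and 0 in either EPSC state. H3K4me1 covered 35.2 kb of that 39.0 kb cluster in ESCs, 28.7 kb in D- and 21.2 kb in L-EPSCs. The member of the cluster closest to the start site, of 1952 bp, had H3K4me1 over 62.8% of its bases in ESCs and over 100% in both EPSC states, and an L-EPSC H3K27ac peak lay 591 bp from it. At Lifr 5 members between 3494 and 14326 bp downstream of the start site were wholly inside D-EPSC H3K4me1 peaks, and the lowest L-EPSC share among them was 98.8%. The 4 members far upstream of Lifr had shares from 33.1 to 100% in D- and from 34.7 to 82.0% in L-EPSCs. The remaining member, 33601 bp downstream, had 51.1% and 63.7%, so lower shares occurred on both sides.

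Nodal and BMP genes had members at 10 of 10 genes, against 53.8% of all genes. Of their ESC regions 43.4% were members, beside 32.9% for all genes and the highest share of the lists examined. Smad7, an inhibitory SMAD, had 9 members, Tdgf1, the Nodal co-receptor Cripto, had 8 and Id1, a BMP target, had 8. Nodal, Lefty1 and Bmp4, which encode the ligand, its antagonist and a BMP ligand, had 7 each. Around Nodal H3K27ac covered 60.9 kb in ESCs, 18.4 kb in D- and 11.3 kb in L-EPSCs, and H3K4me1 71.6, 59.2 and 50.1 kb. Around Bmp4 it covered 18.2 kb, 2.99 kb and 0, and H3K4me1 37.8, 30.0 and 29.6 kb. L-EPSCs thus had no listed H3K27ac around Bmp4 while the H3K4me1 of the 2 EPSC states there was nearly the same length.

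FGF ligands and ERK feedback genes had members at 13 of 14 genes, against 53.8% of all genes. However, 30.4% of their ESC regions were members, below the 32.9% of all protein-coding genes. Fgf4, the FGF ligand of ESCs, had 8 members, Fgf15 had 5 and Fgf3 and Spry4 had 4 each. Fgf3, Fgf4 and Fgf15 are neighbours and share members. Fgf10 had 1 member among 4 ESC regions, and no EPSC H3K27ac peak was listed within 50 kb of its start site, where ESCs had 13.7 kb. H3K4me1 around Fgf10 covered 13.8 kb in ESCs, 5.53 kb in D- and 3.61 kb in L-EPSCs. Dusp6, an ERK phosphatase, had 3 members, all wholly inside H3K4me1 peaks in both EPSC states, and Dusp4 had none.

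Wnt targets had members at 7 of 11 genes (63.6%, beside 53.8% of all genes), and 36.0% of their ESC regions were members, beside 32.9%. Tcf7l1, the repressive TCF of ESCs, had 8 members and Tnfrsf19 had 7, while Sp5, Cdx2, Lgr5 and Nkd1 had none. Cdx1 had 3 members, with 7.66 kb of H3K27ac in ESCs, none listed in either EPSC state, and 39.8 kb of H3K4me1 in ESCs, 12.98 kb in D- and 11.9 kb in L-EPSCs. Axin2, a feedback inhibitor of Wnt signalling, had 1 member, with H3K4me1 over 23.8% of its bases in D- and 7.70% in L-EPSCs. Formative and primed genes had members at 9 of 14 genes and 33.3% of their ESC regions were members, close to all genes. They were led by Otx2 and Lin28a with 5 each, and Fgf5, Dnmt3a, Lef1, Foxd3 and Grhl2 had none.

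Lists outside pluripotency gave the range against which these counts can be read. Of all protein-coding genes 53.8% had a member, and 32.9% of their ESC regions were members. Glycolysis genes had members at 15 of 18, with 6 each at Slc2a1, Hk2, Pfkm and Aldoc, and 31.1% of their ESC regions were members. Hk2, a hexokinase, had 40.3 kb of H3K27ac in ESCs, 2.94 kb in D- and 10.7 kb in L-EPSCs. Cytoplasmic ribosomal protein genes had members at 17 of 18, with 33.7% of their ESC regions. Trophoblast regulators had members at 9 of 11 genes, with 5 at Fgfr2 and none at Elf5 or Ets2. Of their 96 ESC regions 24 were members (25%), below the 32.9% of all genes. Primitive endoderm regulators had members at 3 of 10 genes, with none at Gata4, Gata6 or Sox17, and markers of terminally differentiated cells at 5 of 12. Both were below the 53.8% of all genes, but 28% and 30% of their ESC regions were members, nearer to the 32.9%. A nearby member was thus frequent around ribosomal protein and glycolysis genes too, and lists of genes with little ESC acetylation had few. Among the genes that the study defined as ESC signature 73 of 83 had a member and among its EPSC signature genes 68 of 128, but of their ESC regions 29.3% and 28.6% were members, both below the 32.9% of all genes. Both signatures were chosen on these samples and are not independent evidence.

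**Figure D4:**
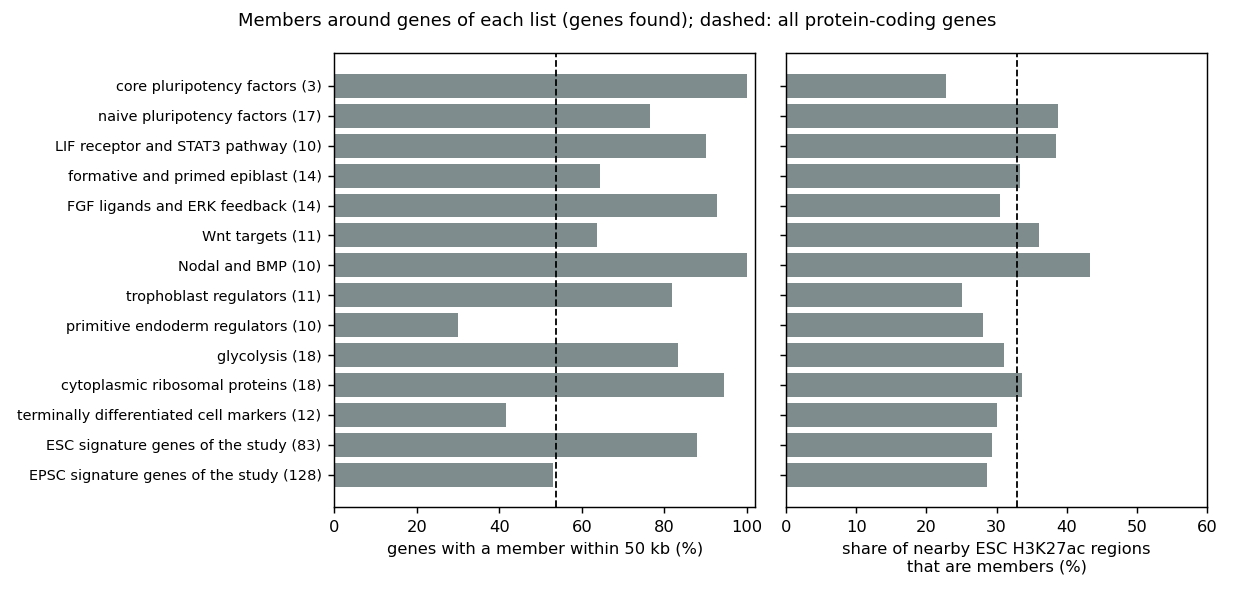
Left, percent of the genes of each list with a member within 50 kb of the start site; right, percent of the ESC H3K27ac regions around those genes that are members, with the number of genes found in brackets and dashed lines at 53.8% and 32.9% for all protein-coding genes. The Nodal and BMP list has the highest bar on the right, at 43.4%, and the core factors the lowest, at 22.7%.

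Motif letters were counted on both strands in 500 bp around the midpoint of every H3K27ac region, and a match is only a run of letters, not a bound site. Members held the KLF letters GGGTGTGG in 7.50% of windows (7.14 to 7.87), against 6.07% of all regions and 6.38% of shared regions. They held the NR5A letters TCAAGGCCA in 4.57% (4.29 to 4.87), against 3.78% and 3.45%. For the ESRRB letters TCAAGGTCA, which contain the nuclear receptor half-site AGGTCA, the shares were 2.80% (2.58 to 3.04), 2.37% and 2.86%. Members were thus above all regions for these 3, and above shared regions for KLF and NR5A only. A 500-bp window covers a smaller part of the wider shared regions, and it reaches beyond the 26.6% of members that are under 500 bp. ESC-only regions without H3K4me1 had a median width of 459 bp, so many of their windows reach beyond them too. The part of width in the motif shares was not tested. The midpoint of shared regions lay under an H3K27ac peak of ESCs in 93.4%, of D-EPSCs in 73.2% and of L-EPSCs in 64.1%. ESC-only regions with H3K4me1 in ESCs alone held NR5A letters more often than members, in 5.21%, and those without H3K4me1 in 3.97%. For KLF these classes had 5.67% and 4.04%, and for ESRRB 2.61% and 1.37%. The POU octamer ATGCAAAT was in 2.68% of member windows and 2.51% of all, the SOX letters CATTGTT in 7.77% and 7.33%, and the STAT letters TTCCNGGAA in 2.03% and 1.92%. Any of these 6 was in 24.6% of the members (23.98 to 25.2) and in 21.7% of all regions.

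The NR5A letters need care, because they also occur in B1, a short interspersed repeat that is abundant in the mouse genome. In B1 they are preceded by GAGT and followed by GCCT. In 58.3% of the member windows with NR5A letters, and in 60.05% of such windows over all regions, every match had one of these neighbours. The share was 28.1% and 27.5% for the ESRRB letters, and 7.13% and 7.40% for the KLF letters with TGGC after them. Without those windows the shares in members and all regions were 1.91% and 1.51% for NR5A, 2.02% and 1.72% for ESRRB and 6.96% and 5.62% for KLF. The members thus stayed above all regions for these 3 motifs when B1 letters were left out, a setting chosen after seeing the data. Of the sequences printed above, the NR5A letters at Fgf10 and the ESRRB letters at Spred1 had B1 letters beside them, and the ESRRB letters at Tet2 and Bcl3 did not.

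Motifs of promoters were rarer in members than in all or shared regions, and rarer still in the 2 other ESC-only classes compared. The SP letters GGGGCGGGG were in 2.54% of member windows (2.33 to 2.77), 3.49% of all and 5.16% of shared windows, and the ETS letters CCGGAAGT in 0.787% (0.673 to 0.920), 1.44% and 2.02%. ESC-only regions with H3K4me1 in ESCs alone and those without H3K4me1 had 1.12% and 0.841% for SP and 0.570% and 0.347% for ETS. Member windows held a mean of 6.89 CpG per 500 bp, against 9.34 in all regions and 11.2 in shared regions, while the median GC content was 47.6%, 47.4% and 47.4%. Fewer members than shared regions were at start sites (3.97% and 18.8%), and the part of position in the motif shares was not tested. The KLF share of members was above that of all regions in each GC tertile, at 5.36% and 4.43% in the lowest, 8.02% and 6.61% in the middle and 8.93% and 7.16% in the highest. The AP-1 letters TGANTCA were in 14.7% of members and 16.0% of all regions, and the TFAP2 letters GCCNNNGGC in 13.7% and 15.2%. The TCF/LEF letters ATCAAAG were in 7.90% of members and 7.30% of all regions, and the ZFP281 letters GGGGAGGGG in 6.33% and 5.67%. The other motifs examined were GGATTA for OTX factors, AGATAAG for the zinc fingers of the GATA family, AACCGGTT for GRHL factors, ACATTCC for TEAD factors, TGTTTAC for FOX factors, CACGTG for the MYC E-box, AGGGGGC for the CTCF core and the half-site alone, and their ratio of members to all regions lay between 0.982 and 1.07.

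**Figure D5:**
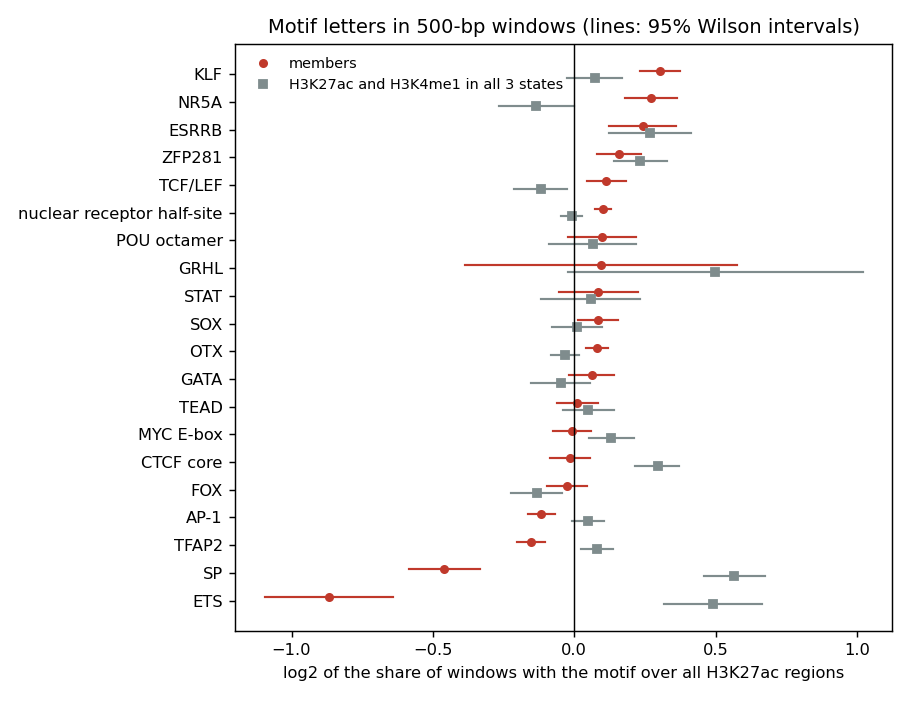
Log2 of the share of 500-bp windows with each motif's letters over the share in all H3K27ac regions, for the members (circles) and shared regions (squares), with 95% Wilson intervals of the share as lines. KLF, NR5A and ESRRB are the highest points of the members, and SP and ETS the lowest, on the opposite side of 0 from shared regions.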

How the data were processed

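The authors aligned the ChIP-seq reads to mm9 with Bowtie2 2.3.5, used SAMtools 1.10, and called broad peaks with MACS against input. The deposited values are peak positions only (other than a chromosome and a name, a start and an end), 1 list per mark and state, with no count, score or signal. Thresholds and the pooling of replicates are not given in the sources used here. Per-peak depth is therefore unknown, and intervals cover counting error only.

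The members and the lists of genes and motifs were chosen with earlier results of these data known. Regions were joined and compared with Python 3.11.15 and numpy 2.4.6, and figures drawn with matplotlib 3.10.9. For start sites the 22350 protein-coding genes of GENCODE M1 gave their 5′ ends, and its genome, NCBIM37, is mm9, and no peak passed a chromosome's end. Coordinates are 1-based. A start site call used the region midpoint and 1 kb, clusters joined gaps of up to 12.5 kb, and gene windows reached 50 kb. Named were the 10 widest members, the 5 largest clusters, the 10 genes with the most members (with ties), and from each gene list up to 4 genes with the most members and those with none; a few further genes were named after their values were seen, and some loci that meet these rules are not reported here. Sequences were picked by the most different pluripotency motifs near listed genes, and 6 of the 8 found are printed. Some genes were matched through older symbols, and 2 ESC and 3 EPSC signature genes had no match. The code was tested on simulated data: 200 random list sets checked base by base and 1000 planted motifs gave 0 errors. Alternatives were lists of equal length, a stricter H3K4me1 overlap, H3K27ac within 1 kb, peaks of at least 500 bp, chromosomes 1 to 19, and other windows.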

Additional observations from a re-analysis of the deposited data

How the results depend on the processing

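No paired analysis was possible because each mark and state has 1 peak list, with no replicate columns, and no replicate could be left out for the same reason. With the lists of a mark shortened to equal length, 7693 regions met the rule in place of 19826, they were 74.7% of ESC-only regions, 3.15% lay at a start site, 28.6% and 21.1% were wholly inside a D-EPSC and an L-EPSC H3K4me1 peak, 42.4% had an EPSC H3K27ac peak within 5 kb, 19.3% were in clusters of 3 or more and 34.5% of genes had one. Requiring H3K4me1 over 50% of the region gave, in the same order after the count (13997), 37.1%, 3.66%, 65.3%, 58.7%, 45.9%, 30.3% and 48.0%. Counting EPSC H3K27ac within 1 kb as present gave 51.2%, 3.43%, 50.03%, 43.1%, 37.5%, 36.3% and 51.3%. Peaks of at least 500 bp gave 56.8%, 4.51%, 45.1%, 38.0%, 37.3%, 35.2% and 49.8%. On chromosomes 1 to 19 the share of genes was 55.6%. Start sites widened to 2500 bp on each side held 10.3% of the members, gaps of at most 5 kb put 19.9% in clusters, and windows of 10 kb and 100 kb gave 26.96% and 66.0% of genes. The cause of these moves was not tested. In every setting the share wholly inside H3K4me1 was higher in D-EPSCs than in L-EPSCs. Motif ratios in windows of 300 bp stayed within the intervals of those of 500 bp for all 20 motifs. Of the gene lists, the differentiated markers and the EPSC signature genes lay below all genes at 50 kb and above at 100 kb.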

Other observations

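Members were not spread evenly over chromosomes. On chromosome X 138 of 600 regions with an ESC H3K27ac peak were members (23%, 95% Wilson interval 19.8 to 26.5), against 29.2% to 35.0% on the single autosomes, where chromosome 8 was lowest and chromosome 5 highest. No cause was tested.

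Several lineage genes had ESC-listed acetylation with members and little or none in EPSCs. Eomes, a T-box factor of trophoblast and mesendoderm, had 3 members, with 10.6 kb of H3K27ac within 50 kb of the start site in ESCs, 0.283 kb in D- and 0.765 kb in L-EPSCs, and 41.3, 33.0 and 26.6 kb of H3K4me1. Lama1, a laminin chain of basement membranes, had 4 members, with 13.7 kb of H3K27ac in ESCs and none listed in either EPSC state. Tead4, a trophoblast regulator, had 4 members among 22 ESC regions, with 61.5 kb of H3K27ac in ESCs, 6.91 kb in D- and 4.68 kb in L-EPSCs. These genes were singled out after their values were seen. Trophoblast regulators had members at 9 of 11 genes and primitive endoderm regulators at 3 of 10, beside 53.8% of all genes. Of the ESC regions of these 2 lists 25% and 28% were members, both below the 32.9% of all genes. The whole H3K27ac lists were also shorter in EPSCs, at 107 Mb in ESCs, 44.4 Mb in D- and 34.3 Mb in L-EPSCs.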
